A study of Bos taurus with 48 samples.

Results

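The genes described here encode nuclear subunits of respiratory complex I, and they were taken from every non-control probe of a bovine expression array whose listed symbol begins with NDUFA, NDUFB, NDUFC, NDUFS or NDUFV followed by a number, or is NDUFAB1. The rule found 36 genes, with 1 probe each, among the 21475 probes of the array, and left out the assembly factors that carry the NDUFAF prefix. NDUFB11 and NDUFA4L2 were recognised from the symbol in the probe description. Of the 36 genes, 35 were among the 14716 genes with a value on every array. RNA came from the LTL, a back muscle of cattle, and was hybridised to 48 2-colour Agilent arrays, each with 1 animal of each arm of an experiment. In the developmental experiment the arms were Piedmontese × Hereford and Wagyu × Hereford crosses, sampled before birth at 60, 135 and 195 days, as newborns (3 arrays for each of these 4) and at 3, 7, 12, 20, 25 and 30 months of age (4 arrays each). In the nutrition experiment Belmont Red cattle on a weight loss diet were set against cattle on a weight growth diet at diet times 0, 1 and 2 (4 arrays each). The labels give no treatment shared by the arms beyond these. The paper describes the nutrition animals as adults in a course of nutritional deprivation and re-alimentation. The labels do not place the re-alimentation among the diet times.

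The 35 animals were few at each time. The 60-day arrays repeated 1 animal of each cross, 135 and 195 days had 5 animals each (at 195 days GP041A and GP041B, which the labels do not show to be separate fetuses, were counted as 2), birth had 6, and 9 animals gave the biopsies from 3 to 30 months, 6 to 8 of them at each age. Each diet had 4 animals at time 0. Time 1 had 3 animals on weight loss, of which RL24 was on 2 arrays, and 4 on growth, and time 2 had 2 and 2. All 36 probes were well above background in all 96 channels and none was saturated, while 49.9% to 76.4% of all spots of a channel were well above background.

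1 animal went against its tissue label. GP672, a Piedmontese × Hereford fetus of 135 days on 1 array, had a mean log2 intensity of 9.43 over the 7 muscle fibre markers with a value, against 13.95 to 14.63 in the other 4 fetuses of that age. Its log2 intensity of ACTA1, skeletal muscle actin, was 10.03 against 16.73 to 17.58. Over 4 adipocyte markers its mean was 13.77 against 8.16 to 9.52, and FABP4, the fatty acid binding protein of adipocytes, stood at 16.56 against 9.02 to 11.63. The same animal had the highest mean of the complex I genes at 135 days, so the counts of called genes, the mean at 135 days and the shares at birth are also given without it. Marker list values and the values, SEs and p-values of single genes include it. It can shift them either way, as its low ACTA1 and high FABP4 show. Among the complex I genes, NDUFV1 stood at 15.33 in GP672 against 13.93 to 14.50 in the other 4. NDUFA1 stood at 13.28 in GP672, the lowest of the 5 fetuses of that age but nearly level with GP012 at 13.29.

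Complex I is the NADH:ubiquinone oxidoreductase of the inner mitochondrial membrane, the entry point of electrons from NADH into the respiratory chain. A matrix arm holds the NADH module, with the flavin and the first iron-sulfur clusters, and the quinone module, which passes electrons to ubiquinone. The membrane arm pumps protons and is built from proximal and distal modules around subunits encoded by mitochondrial DNA. Core subunits do the catalysis and have bacterial relatives, and accessory subunits surround them. By these roles the 35 tested genes comprised 6 core subunits (NDUFV1, NDUFV2 and NDUFS1 of the NADH module, and NDUFS3, NDUFS7 and NDUFS8 of the quinone module) and accessory subunits of the NADH module (4), the quinone module (4), the proximal membrane module (7) and the distal membrane module (11). NDUFAB1 is the mitochondrial acyl carrier protein, bound at both arms. The remaining pair are NDUFA4, which is now counted as a subunit of cytochrome c oxidase, and its paralog NDUFA4L2, which is known for its induction in low oxygen.

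Each value below rests on a single 60-base probe, and 4 probes are shown in part because large changes, and the fall of NDUFA4L2 at birth, were read from them. These are the first 30 bases of each, as listed in the files, which give no genome build or position.
NDUFS1: cttcattgctcacttatgcttgtaaagtga
NDUFB5: tcactatccaaccatcgataaggaacttat
NDUFA4: tcacgttggtgtattgtggtggggtttaca
NDUFA4L2: ctcccctacttccctcggtccccagggatc
The whole probes of the paralogs NDUFA4 and NDUFA4L2 share no run longer than 5 bases. Intensities of different probes are not comparable as levels, so each gene is compared only with itself, on the log2 scale after normalization.

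The first question was how far the complex differs between fetal and post-natal muscle. Of 35 genes, 34 were higher after birth and none was lower. The genes called higher made up 38.8% of all 14716 genes (limma on 12 prenatal and 9 post-natal animals, Benjamini-Hochberg adjusted p under 0.05). The median log2 difference of the 35 genes was 1.20, against 0.02 over all genes. In 27 of them every post-natal animal lay above every fetus, which was so for 21.4% of all genes. The rise ran from 0.29 for NDUFC2 to 2.56 for NDUFS1. In bulk tissue a larger share of muscle fibres and more transcript per fibre cannot be told apart.

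NDUFS1, the largest core subunit and a carrier of iron-sulfur clusters, rose 5.88-fold, from a mean log2 intensity of 9.47 ± 0.23 (SD, n = 12 fetuses) to 12.03 ± 0.35 (SD, n = 9 animals). The fetuses ranged from 9.07 to 9.88 and the post-natal animals from 11.32 to 12.41, so the groups were far apart. NDUFS7, the quinone module subunit that holds the cluster next to ubiquinone, rose 4.57-fold (log2 difference 2.19, SE 0.26, adjusted p = 1.1e-07). NDUFA5, an accessory subunit of the quinone module, rose 4.41-fold (log2 difference 2.14, SE 0.13, adjusted p = 2.4e-12). NDUFB5 of the distal membrane module had the smallest spread for its size, with a log2 difference of 1.74 and an SE of 0.07. Among the other core subunits the log2 difference was 1.35 for NDUFV2, 1.32 for NDUFS8, 1.31 for NDUFS3 and 1.19 for NDUFV1, which binds NADH and the flavin.

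All modules took part. The median log2 difference was 1.35 over the 7 genes of the NADH module, 1.32 over the 7 tested genes of the quinone module, 1.20 over the 7 of the proximal membrane module and 1.16 over the 11 of the distal membrane module, and each gene in these modules was called higher. Within a module the spread was wider than between modules: in the proximal module NDUFC2 rose by 0.29 and NDUFA3 by 1.55, and in the distal module NDUFB10 rose by 0.38 and NDUFB5 by 1.74. Core subunits had a median of 1.33 (6 genes) and accessory subunits of 1.19 (27 genes). NDUFAB1 rose by 0.72 and NDUFA4 by 0.87.

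NDUFA4L2 was the exception, at -0.41 (SE 0.25, adjusted p = 0.14), with fetuses from 8.84 to 11.20 and post-natal animals from 9.23 to 9.81. Without the 60-day fetuses it too was called, and 35 of 35 genes passed, NDUFA4L2 being the one that was lower. Without GP672 the count stayed at 34, with a median difference of 1.22. Prenatal and post-natal arrays were on different slides. With slide as a random block the count was again 34. No slide held both stages, so this block cannot separate a shift between slides from the stage. Cell type markers moved as well: 4 of 7 muscle fibre markers were higher after birth (median log2 difference 3.03), and 5 of 5 fibroblast markers (median -2.84), 4 of 5 erythroid markers (-3.16) and 4 of 4 proliferation markers (-1.71) were lower. Their part in the complex I difference was not tested.

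**Figure D1:**
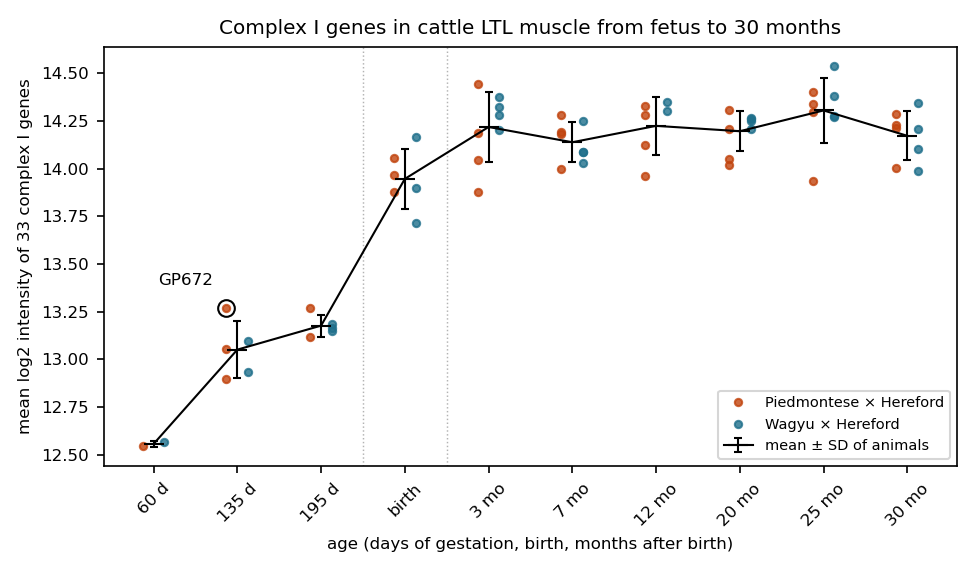
Mean log2 intensity of 33 complex I genes (all tested genes except NDUFA4 and NDUFA4L2) in each animal at 10 ages, with crosses in 2 colours and the mean ± SD of animals at each age in black. The mean climbed from 12.56 at 60 days to 13.18 at 195 days and 13.95 at birth, and lay between 14.14 and 14.31 from 3 to 30 months. GP672 is ringed.

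The mean did not rise by equal steps between the sampled ages, as the plot of the complex I mean by age shows. Birth is labelled 280 days of gestation, and no age between 195 days and birth was sampled. A jump near birth and a steady late climb therefore cannot be told apart. The 33 subunit genes averaged 12.56 at 60 days (SD 0.02, n = 2), 13.05 at 135 days (SD 0.15, n = 5), 13.18 at 195 days (SD 0.06, n = 5), 13.95 at birth (SD 0.16, n = 6) and 14.22 at 3 months (SD 0.18, n = 8). Without GP672 the mean at 135 days was 12.99 (SD 0.10, n = 4). The highest fetus, at 13.27, lay below the lowest newborn, at 13.71. Among the 34 genes that rose, the share of the fetal to post-natal difference already present at birth had a median of 78.5%, and it was over 50% in 32 genes. NDUFB8 at 37.6% and NDUFC2 at -15.1% were the 2 below that. In 6 genes newborns stood above the post-natal mean: NDUFA10 (118%), NDUFB6 (115%), NDUFC1 (112%), NDUFA6 (108%), NDUFB3 (108%) and NDUFB10 (107%). Without GP672 the median share was 78.8%, again with 32 genes over 50%.

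From 60 to 135 days, 12 of 35 genes were called higher and none lower (background 4.92% of genes called higher), and without GP672 there were 13. The largest rises were NDUFS7 (1.27, SE 0.29, adjusted p = 0.0096), NDUFA8 of the proximal module (1.05, SE 0.11, adjusted p = 1.7e-05) and NDUFS6 of the NADH module (0.79, SE 0.17, adjusted p = 0.0076). The core subunits NDUFS3 (0.56) and NDUFV2 (0.49), the acyl carrier NDUFAB1 (0.66) and NDUFA4 (0.70) were also called. Over the 6 tested core subunits the difference ran from 0.17 (NDUFS8) to 1.27, and 3 of the 6, NDUFS1, NDUFV1 and NDUFS8, were not called. The 60-day side rests on 2 animals, and by median centring of the channels in place of loess and Aquantile scaling no gene was called, with a median difference of 0.36 against 0.49. Of the markers, 2 of 4 adipocyte (median 3.03) and 2 of 4 endothelial ones (0.91) were higher and 4 of 4 proliferation markers (-0.79) lower. None of 7 muscle fibre markers was called (0.13). These values include GP672, whose fibre list mean was 9.43. The other 4 fetuses of 135 days had 13.95 to 14.63, above the 12.61 and 13.30 at 60 days. Their adipocyte list means were 8.16 to 9.52, against 13.77 in GP672 and 6.93 to 6.95 at 60 days. The part of the markers was not tested.

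From 135 to 195 days, 5 genes were called higher (background 8.44%) and the median difference was 0.14. They were NDUFA4L2 (1.06, SE 0.21, adjusted p = 0.0034), NDUFS7 (0.70), NDUFA9 (0.49), NDUFV3 (0.46) and NDUFA8 (0.36). The other core subunits, from -0.11 (NDUFS3) to 0.34 (NDUFS8), were not called. Without GP672, 6 were called. Without the arrays numbered 1, only 1 was called, and likewise with median centring. Here 4 of 7 muscle fibre markers (median 1.47) and 2 of 4 endothelial ones (0.55) were higher, and 2 of 4 adipocyte (-2.23), 1 of 5 fibroblast (-0.51) and 4 of 4 proliferation markers (-0.52) were lower. These values include GP672. In the other 4 fetuses of 135 days the fibre list means were 13.95 to 14.63, against 15.39 to 15.60 at 195 days. Their adipocyte list means were 8.16 to 9.52, against 7.21 to 8.42 at 195 days. The part of the markers was not tested.

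The step from 195 days to birth had the largest median difference between neighbouring ages. Of 35 genes, 29 were higher at birth (background 33.7% called higher) and 1 was lower (background 29.1% called lower), with a median log2 difference of 0.76 against 0.06 over all genes. NDUFA5 rose by 1.67 (SE 0.14, adjusted p = 6.6e-08), NDUFS1 by 1.61 (SE 0.15, adjusted p = 1.3e-07) and NDUFB5 by 1.54 (SE 0.13, adjusted p = 6.5e-08). All 6 tested core subunits were called, from 0.66 for NDUFS8 through 0.74 (NDUFS3), 0.86 (NDUFV1) and 1.00 (NDUFS7) to 1.04 for NDUFV2 and 1.61 for NDUFS1. The genes not called were NDUFA4 (0.22), NDUFA7 (0.26), NDUFB8 (0.13), NDUFB11 (0.08) and NDUFC2 (0.03), and NDUFAB1 rose by 0.57. These arrays shared slides, and with slide as a fixed block 31 genes were called. Over the same step 5 of 5 fibroblast markers (median -3.00), 4 of 5 erythroid (-3.92), 4 of 4 proliferation (-1.50) and 3 of 4 endothelial markers (-1.86, with 1 higher) were lower, while 2 of 7 muscle fibre (0.80) and 2 of 5 leukocyte markers (0.24) were higher and no adipocyte marker was called. Their part in the complex I step was not tested.

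NDUFB5 shows the step most plainly. Its 2 fetuses at 60 days read 12.16 and 12.21, the 5 at 135 days lay between 11.90 and 12.36, and the 5 at 195 days between 12.01 and 12.32. The 6 newborns lay between 13.15 and 13.99, with a median of 13.82. The fetal ages overlapped one another and none of them reached a newborn. NDUFS1 read 9.07 and 9.17 at 60 days, 9.30, 9.33, 9.49, 9.59 and 9.72 at 135 days, and 9.36, 9.49, 9.61, 9.64 and 9.88 at 195 days. At birth it had a lowest value of 10.76, a median of 11.22 and a highest value of 11.62. It kept climbing to 3 months, where the 8 animals had a median of 11.97.

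**Figure D2:**
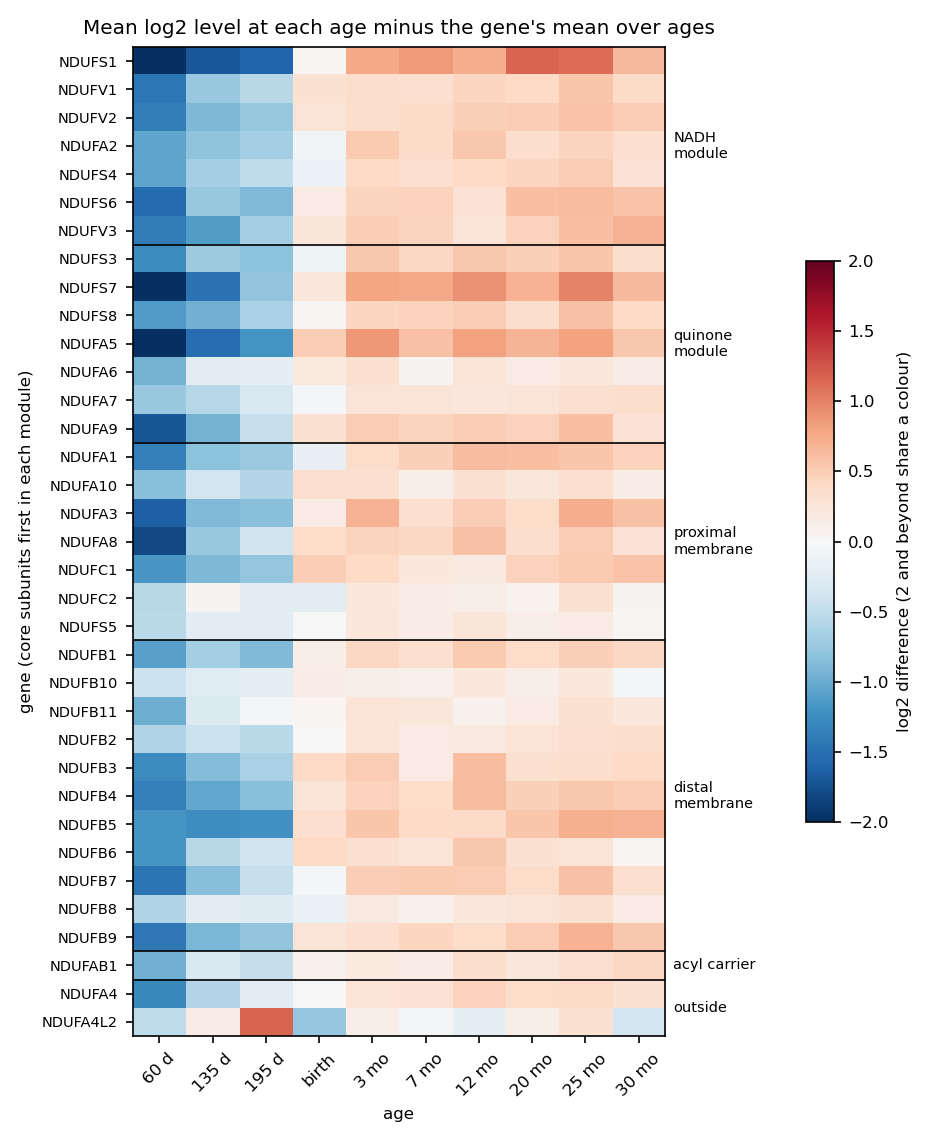
Mean log2 level of each of 35 genes at each age minus that gene's mean over the 10 ages, in rows grouped by module with core subunits first and NDUFA4 and NDUFA4L2 at the bottom. In most rows the 3 fetal columns are below the gene's mean and the columns from 3 months on above it; NDUFA4L2 instead peaks at 195 days and is low at birth.

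NDUFA4L2 ran against the complex at birth. Its log2 intensity was 8.84 and 8.88 in the 60-day fetuses, 9.14, 9.19, 9.39, 9.60 and 10.24 at 135 days, and 9.98, 10.32, 10.42, 10.79 and 11.20 at 195 days. In the 6 newborns it lay between 8.37 and 8.74, with a median of 8.62. All 195-day fetuses stood above all newborns, and the fall was 3.90-fold (log2 difference -1.96, SE 0.20, adjusted p = 5.4e-07). The highest value at 135 days was that of GP672. By 3 months it had risen again by 0.91 (SE 0.11, adjusted p = 2.8e-05), to values from 9.09 to 9.93. NDUFA4 had means of 14.62 at 60 days, 15.32 at 135 days, 15.70 at 195 days, 15.91 at birth and 16.17 at 3 months, and of these steps the first alone was called. The fall of NDUFA4L2 over the interval in which 29 other genes rose held in every alternative that was run.

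**Figure D3:**
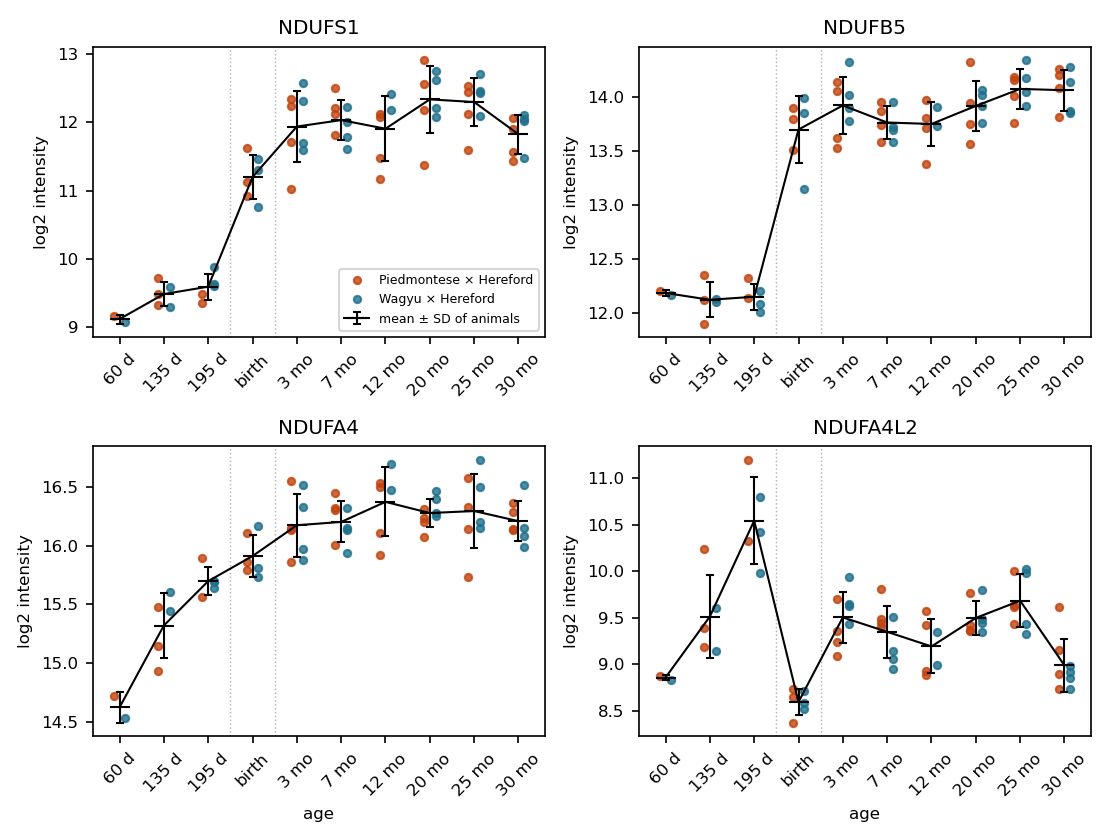
Log2 intensity of NDUFS1, NDUFB5, NDUFA4 and NDUFA4L2 in each animal at 10 ages (points, 2 crosses), with the mean ± SD of animals in black; dotted lines set off birth. NDUFS1 and NDUFB5 are higher at birth than at 195 days. The NDUFA4 means go from 14.62 at 60 days to 16.17 at 3 months, and NDUFA4L2 falls from a mean of 10.54 at 195 days to 8.60 at birth.

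Between birth and 3 months, 14 of 35 genes were called higher and none lower (background 22.3% called higher), with a median of 0.26. Besides NDUFA4L2, the largest rises were NDUFS1 (0.74, SE 0.23, adjusted p = 0.016) and NDUFS3 (0.62, SE 0.11, adjusted p = 5.0e-04), and NDUFS7 (0.56) and NDUFS8 (0.40) were also called among core subunits, while NDUFV1 (0.05) and NDUFV2 (0.08) were not. The ages were on different slides, so slide and age cannot be told apart. With slide as a random block 7 genes were called. Without the arrays numbered 2 there were 6, and without those numbered 4 there were 9. With median centring 1 was called and the median difference turned to -0.14, where the median of all genes moved to -0.09, so a general rise over this interval depends on the scaling. Of the markers, 4 of 5 fibroblast (median 1.14), 3 of 4 adipocyte (0.76), 3 of 4 proliferation (0.41), 3 of 5 leukocyte (0.26) and 2 of 7 muscle fibre ones (0.10) were higher, and 1 of 4 endothelial markers was higher and 1 lower. Their part was not tested.

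After 3 months the steps were small, and no general direction held. From 3 to 7 months 3 genes were called lower (background 9.52%): NDUFB3 (-0.34), NDUFA5 (-0.28) and NDUFA6 (-0.26). The tested core subunits ran from -0.13 to 0.05 in that step. From 7 to 12 months 4 were called higher (background 10.1%): NDUFB3 (0.41), NDUFB6 (0.28), NDUFB4 (0.27) and NDUFAB1 (0.23), with core subunits from -0.08 to 0.17. NDUFB3, an accessory subunit of the distal module, thus went down and up again in neighbouring steps that share the 7-month biopsies. From 12 to 20 months NDUFC1 (0.31) and NDUFS6 (0.28) were called higher (background 6.91%) and NDUFA8 (-0.27) lower (background 9.3%), and no core subunit was called (-0.24 for NDUFS7 to 0.42 for NDUFS1). From 20 to 25 months 4 were called higher (background 6.29%): NDUFS7 (0.30), NDUFC2 (0.23), NDUFB9 (0.18) and NDUFA9 (0.15), but these ages lay on separate slides, and slide and age cannot be told apart.

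From 25 to 30 months 10 genes were called lower and none higher (background 10.7% called lower), with a median of -0.14. The largest falls were NDUFA4L2 (-0.70, SE 0.12, adjusted p = 4.4e-05), NDUFS1 (-0.47, SE 0.15, adjusted p = 0.016) and NDUFS7 (-0.35, SE 0.10, adjusted p = 0.0087). The other 4 tested core subunits, from -0.20 to -0.07, were not called. This direction depended on the scaling: with median centring 31 genes were called higher and none lower, with a median of 0.93 where all genes had moved to 0.48. Without the arrays numbered 4 there were 4 falls, and without those numbered 2 there were 5. In the 3 steps from 3 to 20 months median centring left no gene called, and it turned the median to 0.30, -0.36 and 0.33. From 20 to 25 months it turned it to -0.67, again with no call. Calls of these 4 steps also fell to between 0 and 2 when the arrays of 1 number were left out. No muscle fibre marker was called in these 5 steps, but other markers were. From 3 to 7 months 4 of 5 erythroid (median -1.68), 3 of 4 proliferation (-0.25), 1 of 5 leukocyte and 1 of 4 endothelial markers were lower and 1 of 4 adipocyte markers was higher. From 7 to 12 months 4 of 5 fibroblast markers (-0.89) and 1 of 4 adipocyte markers were lower. From 12 to 20 months 3 of 4 adipocyte (1.37), 3 of 5 erythroid (1.73), 2 of 4 proliferation and 1 of 5 fibroblast markers were higher. From 20 to 25 months 3 of 4 adipocyte (1.13), 3 of 5 erythroid (1.29) and 2 of 5 leukocyte markers were higher. From 25 to 30 months 4 of 5 erythroid (-3.07), 3 of 5 fibroblast (-0.72), 3 of 4 proliferation (-0.30) and 2 of 5 leukocyte markers were lower, and 1 leukocyte and 1 endothelial marker were higher. Their part was not tested.

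The next question was whether the crosses differ. None of the 35 genes was called between Piedmontese × Hereford and Wagyu × Hereford before and at birth or after birth, and neither was any of the other genes (background 0% in both). At an unadjusted p under 0.05 before and at birth there were 0 complex I genes and 613 of all genes, and after birth 4 and 783. Without GP672 the count before and at birth was again 0. The 95% intervals of the 35 differences reached from -0.40 to 0.63 before and at birth, and from -0.66 to 0.43 after birth. These are the outermost limits over the 35 genes. Differences within a gene's own interval, which can be narrower, were not excluded. After birth the estimate was lower in Piedmontese crosses in 32 of the 35 genes, with a median of -0.07 that turned to 0.06 with median centring. The largest difference was that of NDUFA10, an accessory subunit of the membrane arm, at -0.43 (SE 0.07, adjusted p = 0.13). With the mean of each age subtracted, its 5 Piedmontese animals lay between -0.34 and -0.13 and its 4 Wagyu animals between 0.13 and 0.32. It was 1 of 2 genes of the 35, with NDUFB9, in which every Piedmontese animal lay below every Wagyu animal, which was so for 1.07% of all genes. The newborns leaned the other way, with overlap: NDUFA10 read 14.92, 15.03 and 15.34 in Piedmontese crosses against 14.44, 14.52 and 15.12 in Wagyu crosses.

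The nutrition experiment set a diet of weight loss against one of growth. At time 0 no complex I gene was called between the diets, while 3.87% of all genes were called in either direction. The median difference, weight loss minus growth, was -0.06. The intervals of the 35 differences at time 0 reached from -1.185 to 0.6, the outermost limits over these genes. Differences within a gene's own interval, which can be narrower, were not excluded. At time 1, 16 of 35 genes were lower on weight loss and none was higher (background 9.67% called lower). Of the 16, 11 were accessory subunits, 3 were core subunits and 2 were NDUFA4 and NDUFA4L2, which lie outside the complex. The point estimate was below 0 in all 35 genes, with a median of -0.46 against 0.00 over all genes. In 16 genes every weight loss animal lay below every growth animal, which was so for 14.5% of all genes. The 3 animals on weight loss averaged 13.58 (RL27), 13.80 (RL671) and 14.07 (RL24) over 33 subunit genes, and the 4 on growth between 14.29 and 14.40.

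The genes lowest on weight loss came from different modules. NDUFS1 was 2.82-fold lower (log2 difference -1.50, SE 0.45, adjusted p = 0.029), NDUFB5 2.26-fold (-1.17, SE 0.18, adjusted p = 6.5e-04) and NDUFC1, of the proximal module, 2.13-fold (-1.09, SE 0.20, adjusted p = 0.0016). For NDUFB5 the growth animals read 13.98, 14.02, 14.04 and 14.11 and the weight loss animals 12.62, 12.71 and 13.33. For NDUFC1 they read 12.28, 12.40, 12.75 and 12.85 against 11.33, 11.37 and 11.80. Neither gene had overlapping groups. NDUFS1 read 12.00, 12.47, 12.67 and 12.67 against 10.06, 11.07 and 11.84. Its groups did not overlap either, but its spread on weight loss (SD 0.89) was wider than on growth (SD 0.32).

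By module, 5 of 7 genes of the NADH module were called lower (median -0.47), 3 of 7 of the quinone module (-0.48), 4 of 7 of the proximal module (-0.67) and 2 of 11 of the distal module (-0.32). NDUFB4 (-0.06), NDUFB8 (-0.10) and NDUFB10 (-0.01), all of the distal module, were the nearest to 0. Of the tested core subunits NDUFS1, NDUFS3 (-0.71, SE 0.22, adjusted p = 0.034) and NDUFV2 (-0.47, SE 0.12, adjusted p = 0.012) passed, and NDUFS8 (-0.48), NDUFS7 (-0.43) and NDUFV1 (-0.42) did not. NDUFAB1 was not called (-0.34, SE 0.20, adjusted p = 0.23).

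Both genes outside the complex were lower with it. NDUFA4 differed by -0.87 (SE 0.21, adjusted p = 0.0083), with growth animals at 16.42, 16.54, 16.61 and 16.69 and weight loss animals at 15.43, 15.61 and 16.02. NDUFA4L2 differed by -0.81 (SE 0.21, adjusted p = 0.013), with 9.49, 9.71, 9.83 and 10.33 against 8.97, 9.04 and 9.13. In neither did the groups overlap. NDUFA4L2, which ran against the complex at birth, was thus lower together with it here.

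**Figure D4:**
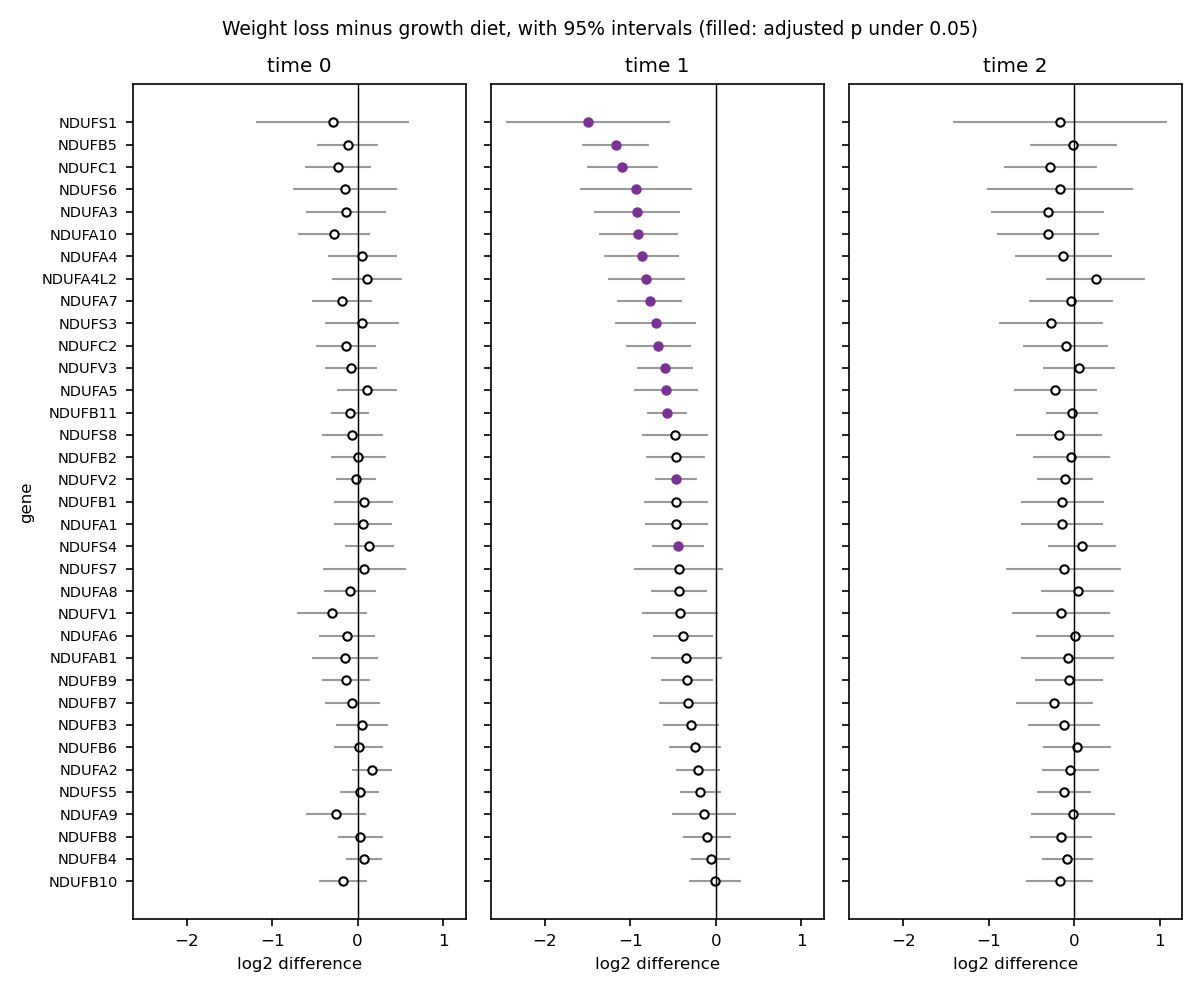
Log2 difference between weight loss and growth diet for each of 35 genes at diet times 0, 1 and 2, ordered by time 1, with 95% intervals; filled points passed an adjusted p of 0.05. At time 1 all 35 points are below 0 and 16 are filled, and at times 0 and 2 none is.

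The count at time 1 depended on single animals. Without RL27 it was 5, without RG166, RG208 or RL671 it was 10, and without RL24 it was 20. Among arrays, leaving out those numbered 1, 3 or 4 gave 3, 10 and 6. NDUFB5, NDUFC1, NDUFB11 and NDUFA4L2 were called whichever of the 8 animals was left out, and NDUFS1 in 3 of the 8 cases (log2 difference -1.91 to -1.05). With median centring 2 genes were called and the median was -0.16, where that of all genes was 0.09.

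Other cell types moved with the diet at time 1. Of 7 muscle fibre markers 6 were lower on weight loss (median -1.64), with the mean of the list between 14.69 and 14.94 on weight loss and between 16.54 and 17.87 on growth. ACTA1 differed by -6.16 (SE 0.34, adjusted p = 1.1e-07). Of 5 fibroblast markers 4 were lower (median -4.20), with list means of 9.52 to 10.28 against 12.39 to 13.78. Endothelial markers (3 of 4 lower, median -0.68) and proliferation markers (3 of 4 lower, median -0.59) moved the same way, while none of 4 adipocyte, 5 leukocyte or 5 erythroid markers was called. Whether these shifts account for the lower complex I signal was not tested.

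At time 2 no gene of the array was called (background 0%), and at an unadjusted p under 0.05 there were 0 complex I genes and 247 of all genes. With 2 animals a diet the intervals were wide, from -1.41 to 1.09 over the 35 genes. NDUFB5 read 13.78 and 13.83 on weight loss and 13.74 and 13.81 on growth, and NDUFS1 12.07 and 12.37 against 12.09 and 12.47. Both weight loss animals of time 2, RL24 and RL27, had been lower in these genes at time 1. The labels do not say whether they were being re-fed by time 2. The change of the diet difference from time 0 to time 1, which tests whether the gap opened during the experiment, was called in 6 genes, all towards lower levels on weight loss (background 5.84% called lower): NDUFB5 (-1.06), NDUFA4 (-0.92), NDUFA4L2 (-0.92), NDUFC1 (-0.86), NDUFS4 (-0.58) and NDUFB11 (-0.48). Of the 6, NDUFA4 and NDUFA4L2 lie outside the complex, and the other 4 are among its 27 tested accessory subunits. The tested core subunits, from -1.20 for NDUFS1 to -0.12 for NDUFV1, were not called. In this comparison 5 of 7 muscle fibre (median -1.60), 2 of 5 fibroblast (-3.30), 3 of 4 proliferation and 1 of 5 leukocyte markers were lower too, and their part was not tested. The count of 6 was 0 without RL27, 1 without RG166 or RG604 and 2 without RG157, RG208 or RL24.

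**Figure D5:**
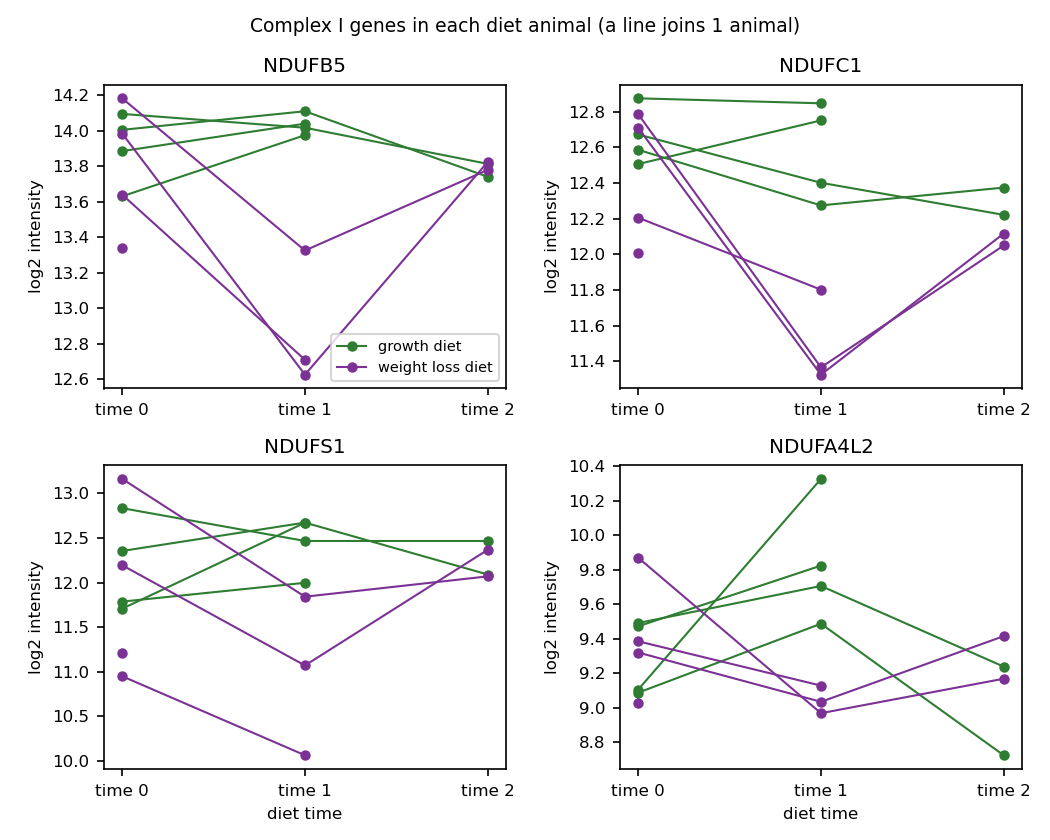
Log2 intensity of NDUFB5, NDUFC1, NDUFS1 and NDUFA4L2 in each diet animal at times 0, 1 and 2, with a line joining the biopsies of 1 animal. At time 1 the 3 weight loss animals lie below the 4 growth animals in each panel, and the 2 of them sampled at time 2 stand above their own values of time 1.

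The partners of these genes were read beside them. Of the subunits encoded by mitochondrial DNA, which form the core of the membrane arm, 6 of 7 had a value on every array. After birth 5 were higher than in fetuses (ND4 by 3.09, ND2 by 2.92, ND5 by 2.92, ND1 by 2.04 and ND3 by 1.59), and ND6, the one of them read from the other strand of that DNA, was lower (-0.25, SE 0.09, adjusted p = 0.017). At diet time 1, ND1 (-1.82), ND4 (-1.64) and ND2 (-1.37) were lower on weight loss. The fetus GP672 had a mean of 12.57 over these 6 genes, against 10.57 to 11.10 in the other 135-day fetuses. NDUFA11, NDUFA12 and NDUFA13, nuclear subunits that the array lists under older names and the rule therefore does not hold, were all higher after birth (0.41, 1.58 and 0.58), and NDUFA13 was lower at diet time 1 (-0.89, SE 0.21, adjusted p = 0.0077).

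Other lists are read against the same background: after birth 38.8% of all genes were called higher and 36% lower, and at diet time 1 10.5% higher and 9.67% lower. Of 11 assembly factors with a value, 9 were higher and 1 lower after birth (median 0.69), led by ECSIT (2.83) and TMEM126B (1.51), and ACAD9 fell by 0.48. At diet time 1, 1 of the 11 was lower (NDUFAF5, -0.74) and 1 higher (COA1, 0.44), with a median of -0.13, which is near the background. Complex II, the succinate dehydrogenase, had 4 of 4 genes higher after birth (median 1.26) and 1 of 4 lower at time 1 (SDHC, -0.72). Of 9 regulators of respiratory genes 6 were higher after birth, among them ESRRA (2.64), an estrogen-related receptor, TFAM (0.84), which packages mitochondrial DNA, and PPARGC1A (0.80), a coactivator of mitochondrial genes. At time 1 ESRRA was lower (-1.01, SE 0.31) and GABPA higher (0.52), and PPARGC1A was not called (-0.37, adjusted p = 0.20). Of 4 genes taken as marks of mitochondrial content, 3 were higher after birth and HSPD1, a chaperonin, was lower (-0.41), and at time 1 2 of the 4 were lower, with CS, citrate synthase, at -0.60.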

How the data were processed

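RNA of the LTL muscle from 35 animals was hybridised to 48 arrays of 2 channels, on 12 slides scanned in 6 sessions. The authors scanned the arrays with Agilent Feature Extraction 9.5.1 (per the labels) and deposited, for each spot and channel, the mean intensity, the local background and flags. The authors' log10 ratios and series table were not used. Groups, animals, dyes and slides came from the labels, and GP041A and GP041B were counted as separate animals, though they may be twins or 2 samples of 1 fetus. Genes were named through a RefSeq table (16479 of 21475 probes matched).

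In limma 3.58.1 (R 4.3.3), background was corrected by normexp (offset 50), arrays were normalized by loess within and Aquantile between, outlier-flagged spots were left out, spots of a probe were averaged, and probes well above background in at least 24 of 96 channels with a value in all were kept (14716 genes, mean of probes). A dye effect was estimated gene by gene and subtracted, as was the mean of each age for crosses after birth. Channels of 1 animal (steps after 3 months and diets: of 1 biopsy, with animal as a random block) were averaged, and lmFit and eBayes gave two-sided tests with Benjamini-Hochberg adjustment over all genes at 0.05. The fits were tested on simulated data that held no shared array or slide effect, so that test does not bear on such effects. The consensus correlation of biopsies of 1 animal was 0.22 after birth and 0.16 in the diets. Neighbouring steps share biopsies, and the diet comparisons share animals.

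Genes named in the text are the 6 tested core subunits, the 3 largest called rises and falls of a comparison, called genes against the median, NDUFA4, NDUFA4L2 and NDUFAB1, with further called genes added after their values were seen. Core subunits that did not pass are given as ranges in the smaller steps. 1 gene of the 36 is not reported here. The members and gene lists were chosen with earlier results of these data known. The number of arrays limits the precision, and p-values measure the spread between the animals sampled. Alternatives covered background, scaling, filter, dye, probes, slides, array pairs and left-out arrays; keeping flagged spots, leaving out GP672, the 60-day fetuses or each diet animal were added after the data were seen. 2 channels of an array deviated together with a median correlation of 0.30 (48 arrays), from -0.28 to 0.67. The comparisons of ages treat the 2 animals of an array as independent, so their p-values may be too small. Log ratios within array pairs were fitted only for crosses and diets, with no block for animals shared between pairs.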

Additional observations from a re-analysis of the deposited data

Results flagged for a closer look

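Single animals stood apart from their group in 4 of 60 groups examined, each a group of 4 to 10 animals in which the gap to the nearest animal was over the 95% critical value for its size. Chance alone gives about 1 in 20. The mean of the complex I genes was 13.94 in GP201 at 25 months, with the nearest of the other animals at 14.27. NDUFAB1 was 15.85 in GP201 at 12 months (nearest 16.08), 15.73 in RL671 at diet time 0 on weight loss (nearest 16.23) and 15.94 in RG166 at diet time 1 on growth (nearest 16.56).

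The diet difference changed between time 0 and time 1, by a test of the change itself, for NDUFB5 (-1.06), NDUFA4 (-0.92), NDUFA4L2 (-0.92), NDUFC1 (-0.86), NDUFS4 (-0.58) and NDUFB11 (-0.48).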

How the results depend on the processing

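The rise after birth (34 genes) and the step from 195 days to birth (30 calls) kept their direction and, within 1.5 times, their count under every alternative run. For the rise after birth no alternative could separate slide from stage. Median centring, which moved the median of all genes by up to 0.48, changed the other counts most. It called 0 genes from 60 to 135 days, 1 from 135 to 195 days, 1 from birth to 3 months, 0 in each step from 3 to 25 months, 31 from 25 to 30 months, 2 at diet time 1 and 0 for the change of the diet difference. It also turned the sign of NDUFA5 (0.081), NDUFA6 (0.11) and NDUFB3 (0.001) from 3 to 7 months, NDUFAB1 (-0.29), NDUFB4 (-0.22) and NDUFB6 (-0.20) from 7 to 12 months, NDUFA8 (0.14) from 12 to 20 months, NDUFB9 (-0.55), NDUFC2 (-0.55) and NDUFS7 (-0.46) from 20 to 25 months, NDUFS1 (0.57) and NDUFS7 (0.72) from 25 to 30 months, and NDUFS8 (-0.026) from birth to 3 months. The cause was not tested.

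Agilent's processed signals gave 1 call from 12 to 20 months, 1 from 20 to 25 months and 2 for the change of the diet difference. Without removal of the dye effect there were 1 from 12 to 20 months and 3 for the change. Plain subtraction gave 2 from 20 to 25 months, flagged spots kept gave 1 from 3 to 7 months, slide as a fixed block 6 from 12 to 20 months, and slide as a random block 7 from birth to 3 months. Some counts came from leaving out the arrays of 1 number, or GP672 where it was in the fit. They were 34 calls after birth and 12 to 13 from 60 to 135 days. From 135 to 195 days there were 1 to 6, and to birth 27 to 30. Without the arrays of 1 number there were 6 to 16 calls to 3 months. The later steps then gave 0 to 3, 2 to 4, 0 to 3, 1 to 2 and 4 to 11 calls. Diet time 1 gave 3 to 15 and the change 0 to 4. Leaving out single diet animals gave 5 to 20 at time 1 and 0 to 6 for the change. The counts of 0 for the crosses and for diet times 0 and 2 stayed at 0 throughout. With the log ratio of each array pair as the replicate, 12 genes were called at diet time 1, 4 for the change of the diet difference and 0 in the other paired comparisons. That fit had no animal block. Pairs that share an animal, such as those of RL24 at diet time 1, counted as separate replicates, so its p-values may be too small. With 2 to 4 animals a diet, only wide differences could be detected.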
